A study of Mus musculus with 12 samples.

Results

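The genes described here are 40 genes of DNA replication in S phase, among the 32285 genes of the deposited gene expression matrices. They were taken as a list of symbols, and all 40 were found. Their UMIs (unique molecular identifiers, 1 per captured RNA molecule) were summed over cells chosen by 2 conditions that use none of the 40 genes: at least 1000 UMIs outside genes whose names start Igh, Igk or Igl, and a leading light-chain V gene with at least 50% of the light-chain V UMIs. These conditions kept 8715 of 39949 filtered barcodes.

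The cells were sorted as antibody-secreting cells (ASCs), which comprise plasmablasts and plasma cells. They came from C57BL/6 mice of both sexes, 3 months of age, and from 3 organs: bone marrow, spleen and thymus. All mice carried Prdm1-eYFP, a yellow reporter for the ASC transcription factor Prdm1. Cells pooled from 3 mice were sorted for the reporter and for high CD138, with B220 positive or negative and without IgD or CD90.2, and each sex and tissue gave 1 droplet library read from the 5′ end of the RNA. The 6 groups share the reporter, the age and the background, the labels name no treatment, and each is 1 pool, so a tissue has 2 libraries and a sex has 3. Whether 1 pool of mice gave all 3 tissues is not labelled. With 1 library per sex and tissue, p-values between tissues or sexes measure how tissue differences varied between the sexes. They do not measure a spread between replicate pools of 1 condition. P-values for groups of cells within libraries measure how those differences varied between libraries.

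Replication starts when Cdc6 helps load the Mcm hexamer onto origins in G1, and Cdc45 and the GINS complex turn it into the active helicase at the start of S phase. Polymerases, the Pcna clamp and its loader then copy the strands, ribonucleotide reductase and thymidylate synthase supply the nucleotides, and histone chaperones package the new DNA. Many of these genes are transcribed at the passage from G1 to S by E2F factors, whereas genes of G2 and mitosis are typically controlled through CHR and CCAAT elements. Plasmablasts still divide, and mature plasma cells have left the cell cycle.

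The promoter stretches below show the E2F element in members whose levels are described further on. RefSeq promoters on GRCm38.p6, the build of the submitters' processing notes (GRCm38, mm10), were found for 30 of 40 members, each with 250 bases before and 50 after the start. The motifs TTTCCCGC, TTTGGCGC, TTTCGCGC and TTTGCCGC were searched on both strands. At the first listed start, 11 of 30 member promoters held 1 of them, or 36.7%: Mcm5, Mcm6, Cdc6, Cdca7, Hells, Dtl, Clspn, Pola1, Casp8ap2, Pold3 and Ubr7. Of 38 further replication genes outside the 40, 32 had a promoter and 12 of these (37.5%) held a motif, close to the members' share. The share was 4.26% of 47 promoters of a G2 and mitosis list. It was 4.46% of 7804 promoters of genes detected well enough in these cells to be tested, and 2.32% of all 27025 promoters. The CHR motif TTTGAA was most frequent in the G2 and mitosis list, with 5 of 30 members (16.7%), 68.1% of the G2 and mitosis list and 18.1% of all promoters. CCAAT was in 70% of member promoters, 76.6% of the G2 and mitosis list and 37.9% of all. Capitals mark the E2F motif, each stretch is 30 bases read 5′ to 3′ on the gene's strand, and a match describes letters only.
Mcm5 (chr8:75109345-75109374, + strand): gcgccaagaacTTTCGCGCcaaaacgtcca
Mcm6 (chr1:128359797-128359826, - strand): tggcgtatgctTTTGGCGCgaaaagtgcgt
Cdc6 (chr11:98908002-98908031, + strand): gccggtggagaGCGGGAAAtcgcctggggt
Hells (chr19:38930917-38930946, + strand): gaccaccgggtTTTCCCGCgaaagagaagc
Pola1 (chrX:93632275-93632304, - strand): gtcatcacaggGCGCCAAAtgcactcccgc
Casp8ap2 (chr4:32615283-32615312, + strand): aagtaccagagTTTGGCGCcaactggaatc
The motif began 153 bases before the start in Mcm5, 110 in Mcm6, 138 in Cdc6, 62 in Hells, 138 in Pola1 and 176 in Casp8ap2. In Mcm5 and Mcm6 a second match on the other strand overlapped the one shown. Rrm2, Rrm1, Tyms and Pcna had promoters in the table and none of the 4 E2F motifs within the window. Ubr7, Pold3 and Clspn hold the motif after the start. Of the members whose levels are compared between cells with and without a Mki67 UMI below, 8 of 25 that passed the test and 2 of 3 that did not hold the motif.

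Depth and purity bear on every value. The chosen cells of females and males numbered 1238 and 1665 for bone marrow, 3567 and 1850 for spleen, and 107 and 288 for thymus, with 264621 (female thymus) to 21287170 (female spleen) UMIs outside immunoglobulin genes. Levels are in CPM, the gene's share of these UMIs multiplied by 1000000; since each molecule is read at its 5′ end, they are not divided by gene length. Across the 6 libraries an ASC marker list (8 of 8 genes detected in each) summed to 58185 to 109816 CPM, T cell markers to 9.21 to 68 and macrophage markers to 26.5 to 80. Germinal centre B cell markers, from another dividing cell type, summed to 30.2 to 77.4 CPM. A B cell list of 11 genes, among them Cd74 and MHC class II genes, summed to 13220 to 17489 CPM, highest in female thymus. Fcer2a, Pax5 and Cr2 were at 0 in both thymus libraries, and Cd22 in the female one as well. The thymus libraries had the fewest UMIs, so a count of 0 there leaves low levels open and is not read as fewer B cells. The neutrophil list stood at 549 CPM in bone marrow of females, 1363 in that of males and at most 0.141 elsewhere, with all 7 genes at 0 in male spleen and both thymus libraries. Between 49.5% and 86% of the cells of a library had under 10% ribosomal protein UMIs. Of 8675 barcode sequences among the chosen cells, 39 occurred in more than 1 library. Xist had 431 to 14306 UMIs in the female libraries and 2 to 8 in the male ones, as labelled.

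The 40 genes spanned a wide range of levels and a few genes gave much of their RNA. Averaged over the 6 libraries, 6 members reached 50 CPM (Rrm2, Mcm6, Rfc2, Slbp, Usp1 and Fen1) and together gave 42.8% of the summed level, while 11 stayed under 10 CPM. All 40 passed the filter on low counts of the tissue comparison, and 35 had a UMI in every library. Cdc45, Gins2, Dscc1, Exo1 and Cdca7 had no UMI in female thymus, where a count of 0 allows a level of up to 3 counts, or 11.3 CPM.

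Nucleotide supply held the member with the most UMIs. Rrm2 (chr12:24708254-24714146), the small subunit of ribonucleotide reductase, was at 101 CPM in bone marrow of females against 82.5 of males, 134 against 87.6 in spleen, and 41.6 against 178 in thymus. Male thymus was highest and female thymus lowest, so the thymus libraries enclosed the other 4. One cell gave 64 of the 212 Rrm2 UMIs of male thymus; with the cell of most Rrm2 UMIs left out of each library, male thymus was at 127 CPM and female spleen at 131, so male thymus was no longer highest. Rrm1, the large subunit, was at 26.9 CPM in bone marrow of females against 29.3 of males, 28.2 against 30.4 in spleen, and 37.8 against 43.7 in thymus, with both thymus libraries above the others. Tyms, thymidylate synthase, was at 26 CPM in bone marrow of females against 25.9 of males, 41.8 against 25.5 in spleen, and 18.9 against 43.7 in thymus; female spleen and male thymus were high and the tissues overlapped.

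Among the genes that license origins and unwind DNA, Mcm6 (chr1:128331575-128359705), a subunit of the replicative helicase, was at 65.6 CPM in bone marrow of females against 75.4 of males, 66.8 against 78.5 in spleen, and 94.5 against 107 in thymus. Both thymus libraries exceeded all others, but this difference did not pass the test given below. The other helicase subunits had lower levels, with Mcm4 at 15 to 37 CPM, Mcm2 at 15.1 to 28.6 CPM and Mcm5 at 15.1 to 33.6 CPM. Gmnn (geminin), which blocks a second loading of the helicase, was at 18.9 to 46.4 CPM, highest in female spleen. Cdc6 ranged from 7.32 to 22.7 CPM, Cdc45 from 0 to 12 CPM and Gins2 from 0 to 10.2 CPM.

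In the synthesis machinery, Rfc2 (chr5:134582690-134598328), a subunit of the clamp loader, was at 72.5 CPM in bone marrow of females against 74.6 of males, 90.1 against 72.3 in spleen, and 64.2 against 84.9 in thymus. Fen1, the nuclease that trims flaps of Okazaki fragments, was at 62.1 CPM in bone marrow of females against 59.2 of males, 77.1 against 66.5 in spleen, and 83.1 against 76.5 in thymus. Pcna, the sliding clamp, was at 41.7 CPM in bone marrow of females against 39.1 of males, 55.2 against 33.3 in spleen, and 41.6 against 51.3 in thymus. Rfc2 and Pcna overlapped between all tissues, and for Fen1 both bone marrow libraries were below the other 4. Rpa2, of the single-strand binding complex, ranged from 22.7 to 49.3 CPM and Pold3, an accessory subunit of polymerase delta, from 18.9 to 37.2 CPM. The catalytic subunit of polymerase alpha, Pola1, the primase Prim1 and the cohesion-linked clamp loader subunit Dscc1 reached at most 16.8, 16.1 and 3.85 CPM.

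Fork protection and repair genes were led by Usp1 (chr4:98923810-98935543), which removes ubiquitin from Pcna, at 64.2 CPM in bone marrow of females against 66.7 of males, 77.7 against 72.8 in spleen, and 83.1 against 74.9 in thymus. The tissues were ordered bone marrow, spleen, thymus in both sexes, and none of these differences passed the test given below. Dtl, the adaptor of the ligase that degrades the licensing factor Cdt1, was at 7.21 CPM in bone marrow of females against 6.46 of males, 11.5 against 11 in spleen, and 45.3 against 13.5 in thymus. Female thymus stood far above the other libraries, on 12 UMIs. Tipin, of the fork protection complex, ranged from 26 to 43.7 CPM, the checkpoint mediator Clspn from 13 to 34 CPM, and the uracil-DNA glycosylase Ung, which also acts in antibody class switching, from 11.1 to 20.2 CPM. The helicases Blm and Brip1, the recombination factor Rad51ap1 and the nuclease Exo1 averaged 2.17 to 10.9 CPM.

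Histone and chromatin genes were led by Slbp (chr5:33640055-33652574), which binds the stem-loop of histone mRNAs, at 72.8 CPM in bone marrow of females against 68.4 of males, 90.7 against 63 in spleen, and 86.9 against 72.3 in thymus. Atad2, a bromodomain ATPase, was at 36.4 CPM in bone marrow of females against 33.8 of males, 35.5 against 49.5 in spleen, and 71.8 against 53.8 in thymus. The thymus libraries were the highest for Atad2, and for Slbp the 3 tissues overlapped. Casp8ap2, needed for histone gene expression, ranged from 33.8 to 56.7 CPM, the histone chaperone Nasp from 18.9 to 44.2 CPM and the histone ubiquitin ligase Ubr7 from 18.9 to 36.1 CPM. The remodeller Hells, the WD-repeat protein Wdr76, the methylation maintenance factor Uhrf1, the chromatin assembly subunit Chaf1b and Cdca7, a partner of Hells, averaged from 1.92 (Cdca7) to 18 CPM (Hells). Of the regulators, cyclin E2 (Ccne2) ranged from 3.78 to 6.73 CPM and the repressor E2f8 from 2.99 to 5.93 CPM. By role, the 8 synthesis genes gave 25.2% of the summed level, the 10 chromatin genes 24.2%, the 8 helicase genes 18%, the 9 fork and repair genes 16.8% and the 3 nucleotide genes 14.9%.

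**Figure D1:**
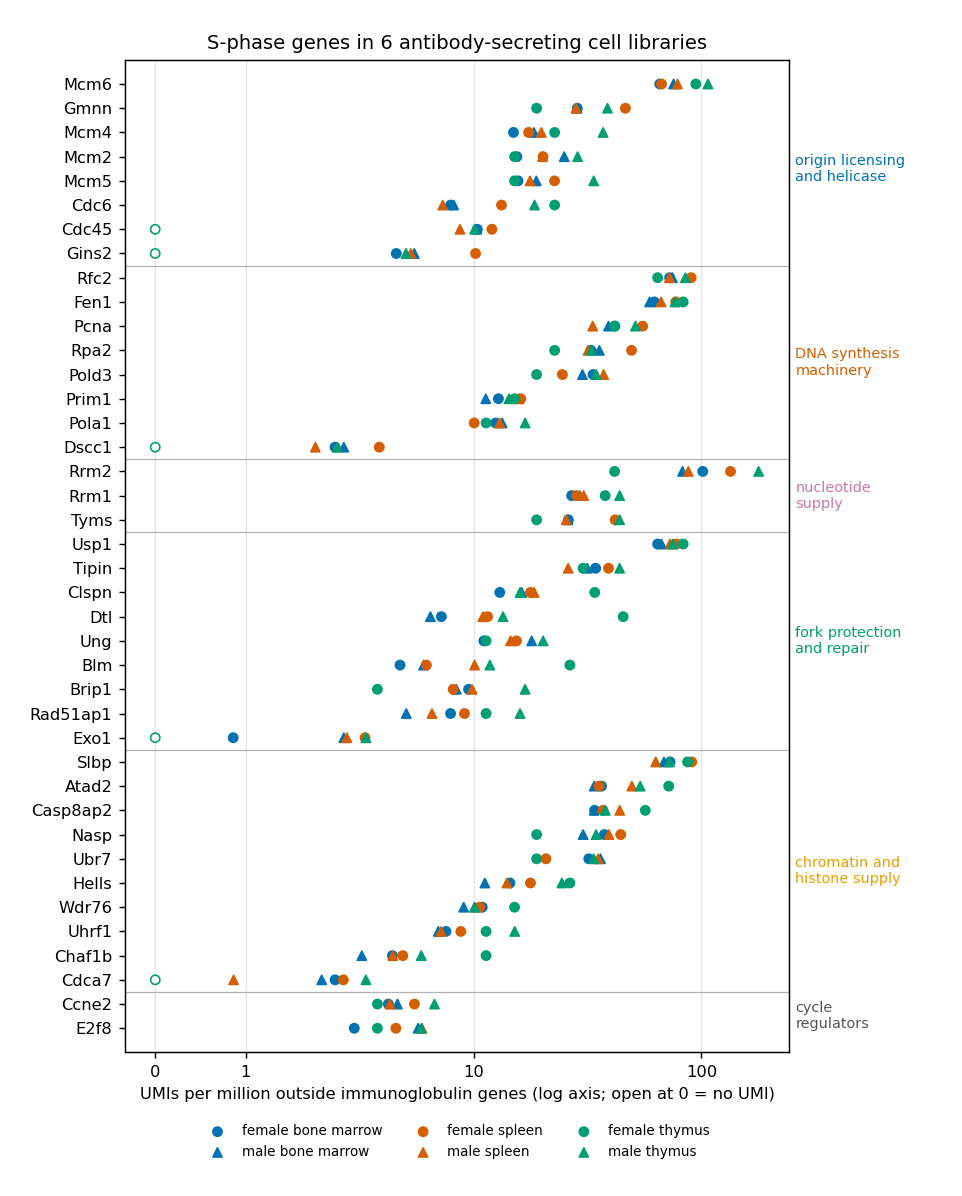
Level of each of the 40 S-phase genes in the 6 libraries, in CPM on a log axis, grouped by role (circles female, triangles male, colours by tissue; open symbols at 0 mark no UMI). Rrm2 runs from 41.6 CPM in female thymus to 178 in male thymus, and 5 members have no UMI in female thymus.

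Summed over the 40 genes, the level was 1000.1 CPM in bone marrow of females against 1000.04 of males, 1210.5 against 1050.4 in spleen, and 1115 against 1378 in thymus. The mean was 1000.1 ± 0.049 CPM (SD, n = 2) in bone marrow, 1130.4 ± 113 (SD, n = 2) in spleen and 1246 ± 186 (SD, n = 2) in thymus. The bone marrow libraries lay below both others, and spleen and thymus overlapped. That order turns on 1 cell of female thymus, which held 55 of the library's 295 S-phase UMIs (18.6%): with the top cell of each library left out, female thymus was at 925 CPM and the bone marrow libraries at 959.9 and 971. With the estimated free RNA subtracted, an alternative added after seeing the data that is described further on, the level was 887 CPM in bone marrow of females against 871 of males, 962 against 852 in spleen, and 1119 against 1314 in thymus; spleen and bone marrow then overlapped, and both thymus libraries lay above the other 4. The free part of the S-phase UMIs was estimated at 5.03% in female thymus to 39.8% in female spleen. The order of the tissues is therefore not settled by these sums. Because these are sums over cells, more cells in S phase and more S-phase RNA per cell cannot be told apart in them.

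The S-phase RNA was unevenly spread over cells. With every cell thinned to 1000 UMIs, 48% of the 8715 cells had no UMI of the 40 genes, and the 10% of cells with the most held 44.4% of all such UMIs. Cells with at least 3 were 6.3% of bone marrow cells in females against 6.61% in males, 9% against 6.05% for spleen, and 10.3% against 8.68% for thymus. The exact 95% intervals, which cover counting error only, were widest in thymus, from 5.24% to 17.7% in the female and from 5.7% to 12.5% in the male library, and both contain the values of the other libraries. Unthinned, the share with at least 3 was higher throughout, in cells of unequal depth (median 2035 to 4352 UMIs); its tissue means were 49.6% in bone marrow, 53.9% in spleen and 35.2% in thymus. Of the 657 thinned cells with at least 3 S-phase UMIs, 352 (53.6%) also had at least 3 UMIs of the 54 genes of G2 and mitosis. The same 352 cells were 21.5% of the 1638 cells with at least 3 UMIs of that list, so the 2 shares differ only through group size.

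**Figure D2:**
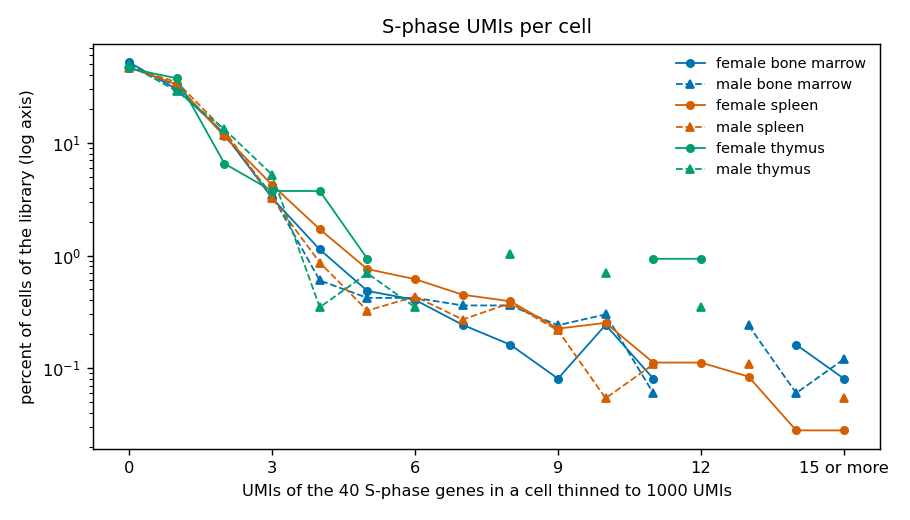
Percent of cells of each library (log axis) by number of UMIs of the 40 S-phase genes in a cell thinned to 1000 UMIs, with 15 or more pooled in the last position. In every library the most frequent number is 0; the highest count in 1 cell was 20.

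The clearest contrast was within libraries, between cells with and without a UMI of Mki67, the proliferation antigen that is made in dividing cells and is not among the 40 genes. S-phase genes were higher in Mki67-positive cells almost as a block: 32 of 35 tested members rose and none fell. This count and the median below include members near 0 in negative cells. E2f8, Cdc6, Rad51ap1, Chaf1b, Uhrf1 and Clspn averaged 0.56 to 2.67 CPM there. Such members passed the filter on low counts through the positive cells and could hardly be called lower. Over all 9798 genes tested, 26.3% were called and 14.9% were called higher. The median log2 fold change of the 35 members was 1.70, against -0.017 over all genes. Mki67-positive cells were 21.5% of the library in male thymus to 36% in female spleen. In positive cells the summed S-phase level was 1806 CPM in bone marrow of females against 1833 of males, 1866 against 1579 in spleen, and 2331 against 2961 in thymus. In negative cells it was 615 CPM in bone marrow of females against 597 of males, 669 against 667 in spleen, and 667 against 659 in thymus. With free RNA not subtracted, negative cells were close together, at 646 ± 31.4 CPM (SD, n = 6). Positive cells were spread more widely, at 2063 ± 504 CPM (SD, n = 6), with both thymus libraries highest. With the estimated free RNA subtracted, negative cells ran from 313 CPM in female spleen to 653 in female thymus. Positive cells then ran from 1507 CPM in male spleen to 3006 in male thymus. The closeness of the negative cells is therefore not read as a trait of the cells. In female thymus 1 of 29 positive cells held 55 of their 166 S-phase UMIs, and in male thymus 1 of 62 held 189 of 1099. With the top positive cell of each library left out, an alternative added after seeing the data, the level was 1677 CPM in female thymus, within the 1532 to 1848 CPM of bone marrow and spleen, and 2649 CPM in male thymus, still the highest. Before either alternative, the ratio of the positive to the negative sum was 2.37 in male spleen to 4.49 in male thymus.

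A single Mki67 UMI is a weak mark, since free RNA carries Mki67 too. The free part of the Mki67 UMIs was estimated from light-chain V genes other than the leading one at 3.86% in female thymus to 59.1% in female spleen. Spread evenly over cells, it would give a Mki67 UMI to 3.02% of cells in female thymus, 13.4% in male thymus, 18.3% and 24.8% in bone marrow, 32.5% in male spleen and 51.1% in female spleen, which is more than the observed 36%. The share of positive cells is therefore not read as a share of dividing cells, and its order between libraries is not read at all.

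The S-phase level differed with the number of Mki67 UMIs, in a division of cells that was added after seeing the data. In cells with exactly 1 Mki67 UMI the summed S-phase level was 651 CPM in bone marrow of females against 607 of males, 737 against 723 in spleen, and 807 against 961 in thymus. In both bone marrow and both spleen libraries that was at most 737 CPM, beside 597 to 669 CPM without Mki67. In cells with 3 or more it was 3599.6 CPM in bone marrow of females against 4317 of males, 3439 against 3719 in spleen, and 3699 against 5053 in thymus. These cells were 5.77% (male bone marrow) to 11.2% (female thymus) of a library and deeper, with a median of 2702 to 9550 UMIs against 1816 to 4311 for cells with 1.

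By role, all 3 nucleotide genes rose. In positive cells Rrm2 was at 288 CPM in bone marrow of females against 232 of males, 264 against 185 in spleen, and 70.2 against 528 in thymus. In negative cells it was at 12.2 CPM in bone marrow of females against 10.2 of males, 26.7 against 17.2 in spleen, and 31 against 19.6 in thymus. It was higher in positive cells of every library, least so in female thymus (log2 fold change 3.78, SE 0.13, adjusted p = 2.02e-19, edgeR quasi-likelihood test). Tyms was at 42.1 to 113 CPM in Mki67-positive cells and 9.36 to 15.7 in negative cells (log2 fold change 2.24, SE 0.11, adjusted p = 1.65e-16). Rrm1 was at 45.6 to 97 CPM in Mki67-positive cells and 13.9 to 31 in negative cells (log2 fold change 1.77, SE 0.10, adjusted p = 1.66e-14). For all 3 genes the lowest positive library lay above the highest negative one, and so it did for 27 of the 35 tested members; this held for 3.35% of all genes tested. A level higher in the positive cells of all 6 libraries was found for 28 of 35, against 13.4% of all genes tested, and in the 5 libraries other than female thymus for 32, against 21.3% of all genes tested. These counts, like the 27 of 35, include members near 0 in negative cells. Those members passed the filter on low counts through the positive cells, so they could hardly be lower in them.

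All 6 tested helicase and licensing genes rose. Cdc6, the loader, was at 21.8 CPM in bone marrow of females against 22.8 of males, 26.5 against 17.1 in spleen, and 84.2 against 59.3 in thymus in positive cells and at 2.31 CPM or less in negative cells, with 1 to 27 UMIs in those of bone marrow and spleen libraries and none in those of thymus (log2 fold change 4.04, SE 0.22, adjusted p = 3.21e-15). Its fold change, like those of E2f8, Rad51ap1, Uhrf1, Chaf1b and Clspn, rests on few UMIs in negative cells. Such members passed the filter on low counts through the positive cells, so the order of these fold changes is not read. Mcm5 was at 33.6 to 97 CPM in Mki67-positive cells and 3.12 to 6.1 in negative cells (log2 fold change 3.25, SE 0.15, adjusted p = 4.08e-17). Mcm4 (log2 fold change 1.92, SE 0.13, adjusted p = 8.86e-13) and Mcm2, at a log2 fold change of 1.70, rose less. Mcm6 had the smallest change of the hexamer subunits measured, 0.94, and in negative cells it still reached 42.3 to 73.4 CPM. Gmnn was at 42.1 to 80.8 CPM in Mki67-positive cells and 10.3 to 26.1 in negative cells (log2 fold change 1.57, SE 0.097, adjusted p = 8.11e-14). Cdc45 and Gins2 were not tested, and were higher in positive cells in 5 of 6 libraries, with no UMI in female thymus.

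Of the synthesis machinery, 6 of 7 tested genes rose. Pola1 and Prim1, which start each new strand, changed by 2.17 and 1.93 on the log2 scale. Pcna and Rpa2 changed by 1.31 and 1.11. Fen1 was at 93.6 to 140.4 CPM in Mki67-positive cells and 35 to 62 in negative cells (log2 fold change 1.28, SE 0.082, adjusted p = 1.59e-13). Rfc2 was at 28.1 to 119 CPM in Mki67-positive cells and 61.8 to 77.6 in negative cells, with the positive cells of female thymus below its negative ones (log2 fold change 0.39, SE 0.083, adjusted p = 7.53e-04). Pold3 did not pass the test, at 24.4 to 41.1 CPM in Mki67-positive cells and 15.5 to 34.4 in negative cells (log2 fold change 0.088, SE 0.092, adjusted p = 0.527). Dscc1 was not tested.

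Of the fork and repair genes, Clspn was at 36.5 CPM in bone marrow of females against 45.6 of males, 35.8 against 39.9 in spleen, and 112 against 48.5 in thymus in positive cells and at 1.22 to 5.17 CPM in negative cells (log2 fold change 3.92, SE 0.15, adjusted p = 1.25e-18). Rad51ap1 was at 14.1 to 48.5 CPM in Mki67-positive cells and 0 to 1.8 in negative cells (log2 fold change 3.85, SE 0.22, adjusted p = 1.66e-14). Tipin was at 41.7 to 86.2 CPM in Mki67-positive cells and 14.6 to 24.5 in negative cells (log2 fold change 1.51, SE 0.090, adjusted p = 2.65e-14). On the log2 scale Blm, Brip1, Dtl and Usp1 rose by 2.06, 2.04, 1.92 and 0.95. Ung missed the threshold, at 13.6 to 22.4 CPM in Mki67-positive cells and 9.88 to 20.8 in negative cells (log2 fold change 0.32, SE 0.12, adjusted p = 0.0517). Exo1 was not tested.

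Of the chromatin genes, 8 of 9 tested rose. Uhrf1 was at 14.4 to 48.5 CPM in Mki67-positive cells and 0 to 5.17 in negative cells (log2 fold change 3.73, SE 0.25, adjusted p = 3.48e-13). Nasp was at 56.2 to 78.1 CPM in Mki67-positive cells and 5.17 to 26.7 in negative cells (log2 fold change 1.41, SE 0.092, adjusted p = 2.92e-13). On the log2 scale Hells, Chaf1b, Wdr76, Atad2 and Slbp rose by 2.38, 2.36, 1.42, 1.05 and 1.0, and Casp8ap2 by 0.41. Ubr7 did not pass the test, at 0 to 40.4 CPM in Mki67-positive cells and 20.7 to 36.7 in negative cells (log2 fold change -0.0072, SE 0.10, adjusted p = 0.973). The untested Cdca7 had at most 5.99 CPM. Both regulators rose, E2f8 by 4.01 and Ccne2 by 1.59 on the same scale.

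**Figure D3:**
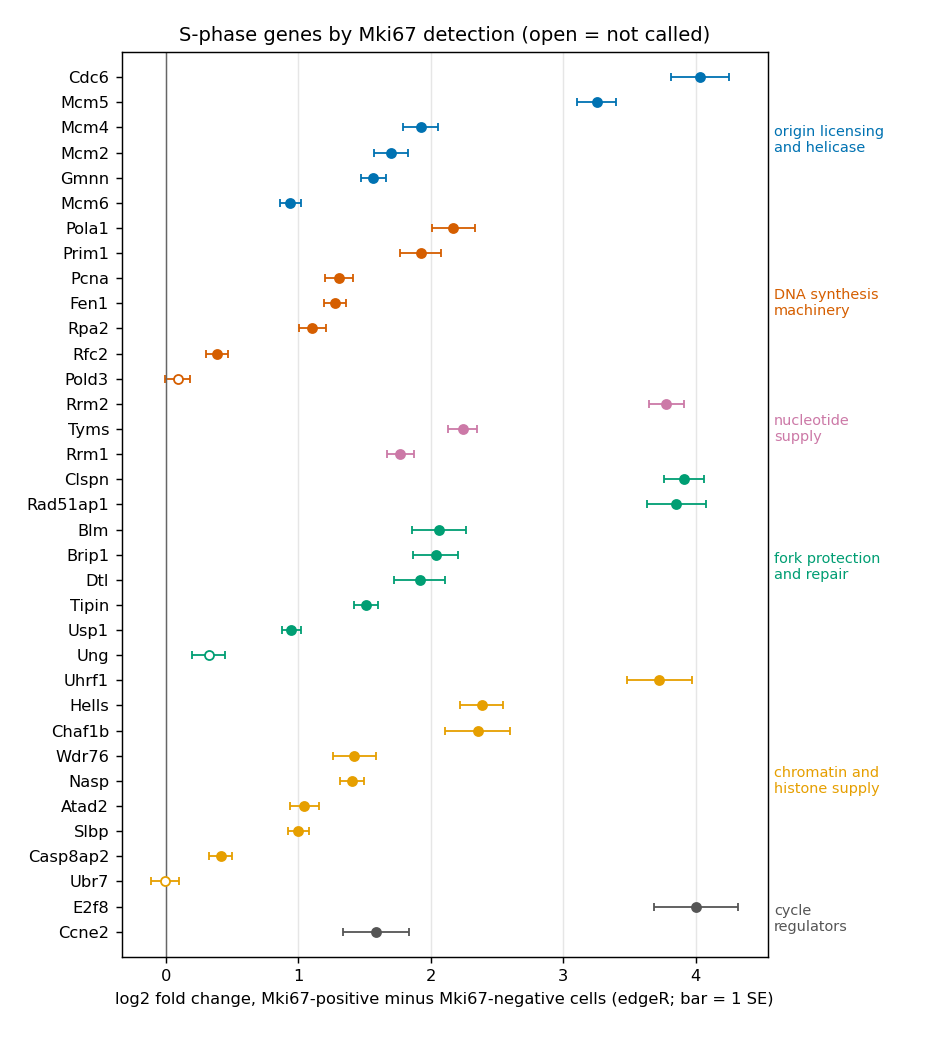
Log2 fold change of the 35 tested S-phase genes between Mki67-positive and Mki67-negative cells, grouped by role, with bars of 1 SE (edgeR over 12 sums, 2 per library; open symbols did not pass an adjusted p of 0.05). The values run from -0.0072 to 4.04, and only Ung, Pold3 and Ubr7 are open. The largest values belong to members near 0 in negative cells, which passed the filter on low counts through the positive cells, so their order is not read.

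The order of the members differed between the groups of cells. In Mki67-positive cells Rrm2 alone made up 12.7% of the summed level, and in negative cells 3.02%, where it ranked 12th. Negative cells were led by Rfc2 at 10.8%, Mcm6 at 8.86%, Slbp at 8.33%, Usp1 at 8.27% and Fen1 at 7.21%, which together gave 43.5%. On the same scale 23 of 40 members averaged 5 CPM or more in negative cells and 39 in positive cells.

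Free RNA carried these transcripts too. In barcodes of at most 100 UMIs outside the filtered lists, the 40 genes summed to 2065 CPM in bone marrow of females against 2050.2 of males, 2008 against 1942 in spleen, and 1175 against 2127 in thymus, which is above the level of the chosen cells in all 6 libraries. From light-chain V genes other than the leading one, the free part of the S-phase UMIs was estimated at 1.38% to 21.2% in Mki67-positive cells and 9.74% (female thymus) to 82.7% (female spleen) in negative cells. With the free profile subtracted, an alternative added after seeing the data, 32 of 34 tested members were called higher, against 15.3% of 9570 genes. The median log2 fold change of the 34 members was 3.48. The subtraction took most from negative cells, where several members had few UMIs before it, so the size of this median is not read. Such members could hardly be called lower here either. The estimate of the free part is rough. For genes of G2 and mitosis in Mki67-negative cells of female spleen it came to 116% of their UMIs, more than were counted.

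Mki67-positive cells were also deeper, with a median of 4306 UMIs against 3278. Thinned to 1000 UMIs, only 11 members had enough UMIs to be tested; 8 of them were called higher, against 5.73% of 4309 genes, with a median of 0.76, and Rfc2, Casp8ap2 and Ubr7 were not. Among cells with at least 10% ribosomal and under 10% mitochondrial UMIs, 20 of 22 tested members were called higher, against 14.7% of 7598 genes. In thinned cells, 21% of those with a Mki67 UMI and 5.47% of those without had at least 3 S-phase UMIs. Of 38 further replication genes (other Mcm, polymerase and origin genes among them), 35 were tested and all 35 rose, with a median of 1.28, led by Mcm3, Ccna2, Rfc4, Dut and Lig1. Of the 54 genes of G2 and mitosis, 50 were tested and all 50 rose, with a median of 3.73. Mki67, which set the groups, is one of the 50. Of 6 tested B cell markers, 3 were called higher and 1 lower in positive cells; the 11 genes of that list summed to 13425 to 15093 CPM in positive and 13071 to 18868 in negative cells. Of the 8 ASC markers 3 were called lower in positive cells, with sums of 20739 to 83054 CPM in positive and 71975 to 125675 in negative cells. The 7 neutrophil genes, none of them tested, summed to 0 to 3980.2 and 0 to 771 CPM. The part of these markers in the result was not tested; without cells holding markers of other types, 32 of 35 members were called higher, against 12.2% of 9450 genes.

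**Figure D4:**
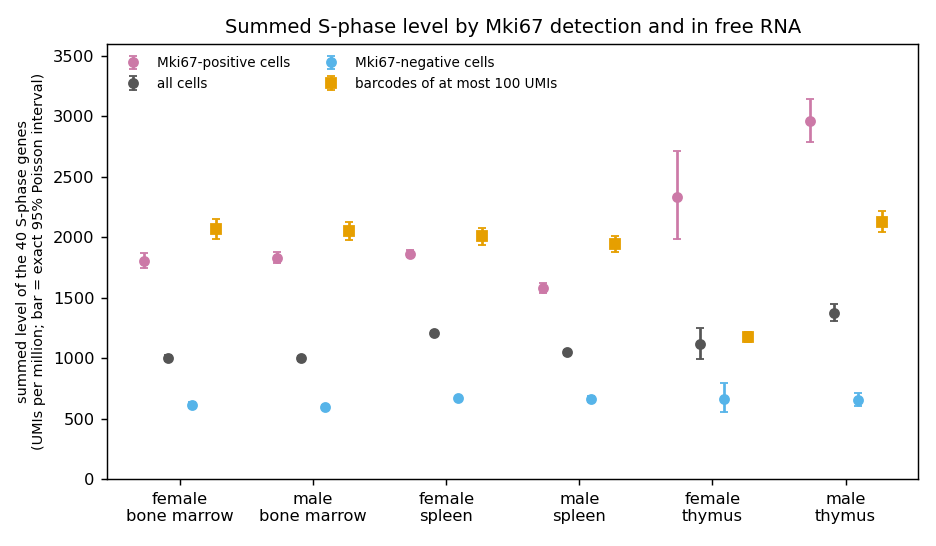
Summed level of the 40 S-phase genes in CPM for each library, in Mki67-positive, all and Mki67-negative cells and in barcodes of at most 100 UMIs, with exact 95% Poisson intervals that cover counting error only. Negative cells, with free RNA not subtracted, sit between 597 and 669 CPM in the 6 libraries, and free RNA is above all cells in each.

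Between tissues, no S-phase gene passed the test. In the fit of tissue and sex over the 6 libraries, 0 of 40 members were called for thymus against bone marrow, where 0.765% of 11239 genes were, 0 of 40 for thymus against spleen (0.632%), and 0 of 40 for spleen against bone marrow (0.436%). DESeq2 called 0 of 40 in each as well. At an unadjusted p under 0.05, 6 members stood for thymus against bone marrow (8.73% of all genes did), 0 for thymus against spleen (9.19%) and 1 for spleen against bone marrow (4.65%). In CPM, both spleen libraries were above both bone marrow libraries for 10 of 40 members (9.67% of all genes) and below for 0 (9.87%). Both thymus libraries were above both bone marrow libraries for 15 (37.9%) and below for 1 (15.4%), and above both spleen libraries for 11 (26.6%) and below for 3 (11.1%). The members' shares above were close to the background for both thymus contrasts, and the spleen share, at 10 of 40, was higher than it.

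For thymus against bone marrow the smallest adjusted p was that of Dtl, whose log2 difference was 1.45 (SE 0.43, adjusted p = 0.169). Its level was 7.21 and 6.46 CPM in bone marrow against 45.3 and 13.5 in thymus, so the groups did not overlap but the thymus libraries differed more from each other than bone marrow did from male thymus. Among members of at least 20 CPM the largest differences were Mcm4 at 0.72 (SE 0.34, adjusted p = 0.566), Ubr7 at -0.53 (SE 0.34, adjusted p = 0.678), Atad2 at 0.52 (SE 0.30, adjusted p = 0.642) and Mcm5 at 0.51 (SE 0.37, adjusted p = 0.729). Mcm4 was at 15 CPM in bone marrow of females against 18.4 of males, 17.4 against 19.8 in spleen, and 22.7 against 37 in thymus, with both thymus libraries above the rest. For thymus against spleen they were Nasp at -0.66 (SE 0.34, adjusted p = 0.579), Rpa2 at -0.63 (SE 0.36, adjusted p = 0.614), Mcm4 at 0.53 (SE 0.34, adjusted p = 0.669) and Gmnn at -0.35 (SE 0.37, adjusted p = 0.842). For spleen against bone marrow they were Gmnn at 0.40 (SE 0.29, adjusted p = 1), Tyms at 0.40 (SE 0.29, adjusted p = 1), Nasp at 0.33 (SE 0.26, adjusted p = 1) and Rrm2 at 0.33 (SE 0.39, adjusted p = 1). Gmnn was high in female spleen and lower in the male one: it was at 28.5 CPM in bone marrow of females against 28.4 of males, 46.4 against 28.1 in spleen, and 18.9 against 38.7 in thymus.

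The medians of the 40 log2 differences were 0.14 for thymus against bone marrow (30 of 40 above 0), -0.060 for thymus against spleen (17 of 40) and 0.24 for spleen against bone marrow (36 of 40), against -0.019, -0.036 and 0.026 over all genes tested. These medians moved with the cells, the free RNA and single libraries. For thymus against spleen the median was 0.44 with free RNA subtracted, 0.34 among cells with at least 10% ribosomal and under 10% mitochondrial UMIs, 0.14 with the leading light-chain V gene at 80% or more and 0.13 at 2000 UMIs or more, all of the opposite sign. For spleen against bone marrow it was 0.072 (22 of 39 above 0) with free RNA subtracted. Without male thymus the median for thymus against bone marrow was -0.59, and without female spleen that for spleen against bone marrow was -0.12. The SE of a member was 0.30 to 0.99 (median 0.38) for thymus against bone marrow and 0.25 to 0.50 (median 0.28) for spleen against bone marrow, so changes of that size were not resolved. All tested genes of the G2 and mitosis list (53) and of the further replication genes (38) likewise missed the threshold in these 3 contrasts. Differences of single members moved with single libraries, in fits where 1 tissue kept 1 library and 1 residual degree of freedom was left. Calls in such fits are not read. For thymus against bone marrow Dtl was at 1.46 without female spleen, 1.44 without male spleen and 2.19 without male thymus. For thymus against spleen Rpa2 was at -1.26 without male spleen and Rrm2 at -2.10 without male thymus. For spleen against bone marrow Gmnn and Tyms were both at 0.97 without male spleen. Without cells holding markers of other types (neutrophils among them), 0 of 40 were called in each of the 3 contrasts. Among cells with at least 10% ribosomal and under 10% mitochondrial UMIs, 1 of 38 tested members, Rrm2, was called higher in thymus than in each other tissue. There 0.843% of 9723 genes were called higher than in bone marrow and 1.12% higher than in spleen. Against spleen this was the opposite direction to the value of Rrm2 without male thymus. In female thymus 15 cells reach that ribosomal share.

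Between the sexes, 0 of 40 members were called, with 0.427% of all genes called, and DESeq2 called 0. Among cells with at least 10% ribosomal and under 10% mitochondrial UMIs, 3 of 38 (Dtl, Slbp and Rrm2) were called lower in males, as were 2.46% of the 9723 genes tested there; 454 of these genes were called in either direction. At an unadjusted p under 0.05 there were 4 members, all lower in males: Rad51ap1, Cdc6, Hells and Dtl (10% of all genes). The largest differences among members of at least 20 CPM were Pcna at -0.49 (SE 0.25, adjusted p = 0.53), Slbp at -0.48 (SE 0.25, adjusted p = 0.53), Tipin at -0.43 (SE 0.25, adjusted p = 0.586) and Gmnn at -0.41 (SE 0.27, adjusted p = 0.623). The median over the 40 genes was -0.32, with 10 of 40 above 0, against 0.017 over all genes. Without the female spleen library the median was -0.045 and without the male one -0.022. In CPM, which the scaling of the fit does not touch, 7 of 40 members were lower in the male library of all 3 tissues (Dtl, Wdr76, Slbp, Prim1, Chaf1b, Fen1 and Hells; 5.16% of all genes were) and 6 were higher in all 3 (Mcm6, E2f8, Rrm1, Ubr7, Mcm4 and Pola1; 26.7%).

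Cells were also divided by the heavy-chain constant gene with most UMIs. In IgM cells the summed S-phase level was 910.4 CPM in bone marrow of females against 996 of males, 1188 against 1008 in spleen, and 1284 against 1362 in thymus. In IgA cells it was 642 CPM in bone marrow of females against 1209 of males, 1027 against 929 in spleen, and 825 against 2057 in thymus. In IgG cells it was 2027 CPM in bone marrow of females against 953 of males, 1349 against 1101 in spleen, and 692 against 963 in thymus. The IgG cells of female bone marrow and the IgA cells of male thymus stood out, and in female thymus IgA and IgG had 18 and 17 cells and stay out of the tests. Single cells weighed heavily in small groups. In male thymus 1 of 26 IgA cells held 74.1% of their S-phase UMIs, and without it the level was 686 CPM. In female bone marrow the highest of 123 IgG cells held 23.1%, and without it the level was 1609 CPM, against 861 for IgM cells without theirs. The top 3 IgG cells held 46.4%, and without them the level was 1207 CPM, against 794 for IgM cells without their top 3. The median cell was at 712 CPM in IgG and 594 in IgM.

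**Figure D5:**
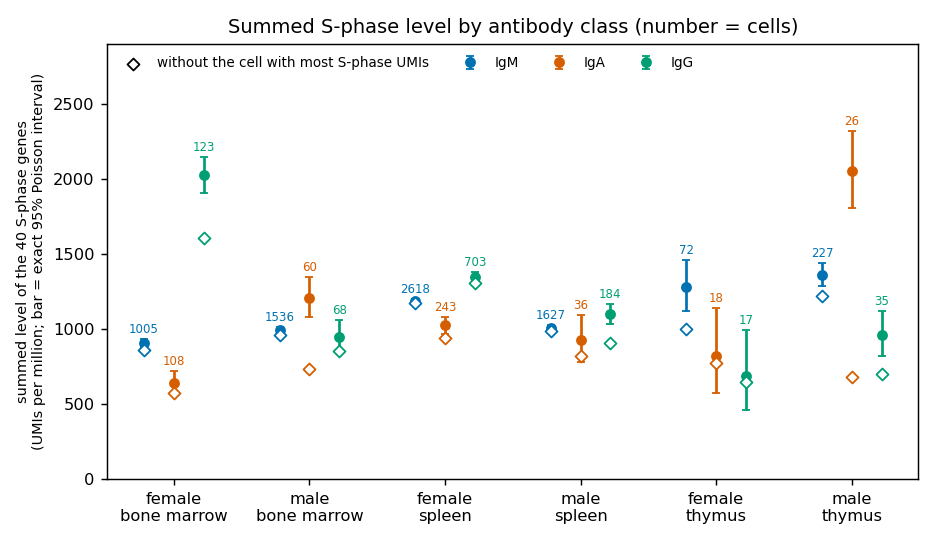
Summed level of the 40 S-phase genes by antibody class and library in CPM, with exact 95% Poisson intervals (counting error only) and the number of cells above each; diamonds leave out the cell with the most S-phase UMIs. The IgA cells of male thymus fall from 2057 to 686 CPM without 1 cell.

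Gmnn and Rrm2 were called higher in IgG than in IgM cells. In the fit of library and class, 2 of 30 tested members were called for IgG against IgM, both higher, where 13.5% of 7564 genes were called and 6.2% called higher, so the members' share was near or under the background. Gmnn was at 61.2 against 26.1 CPM in female bone marrow, 49.2 against 27.5 in male bone marrow, 55.8 against 44.7 in female spleen, 40.3 against 25.3 in male spleen and 41.1 against 34.6 in male thymus, higher in IgG cells of all 5 libraries (log2 fold change 0.57, SE 0.15, adjusted p = 0.00688). Rrm2 was at 445 against 67.4 CPM in female bone marrow, 104 against 81.8 in male bone marrow, 162 against 133 in female spleen, 104 against 77.9 in male spleen and 123 against 137 in male thymus, higher in IgG cells of 4 libraries (log2 fold change 0.91, SE 0.30, adjusted p = 0.0401). Of the IgG cells' Rrm2 UMIs, 57.9% came from 1 cell in female bone marrow, 61.3% from 1 cell in male spleen and 61.9% from 1 cell in male thymus. With the cell of most Rrm2 UMIs left out of each sum, IgG cells of male spleen were at 41.4 CPM against 71.8 in IgM cells, and Rrm2 was higher in IgG cells of 3 of the 5 libraries. Tyms at 0.52 (SE 0.20, adjusted p = 0.0923) and Rrm1 at 0.38 (SE 0.18, adjusted p = 0.2) were the next in size among members of at least 20 CPM and missed the threshold. The count was 0 of 23 tested without male spleen, 1 of 33 without female bone marrow (369 of 8161 genes were called higher) and 1 of 22 without female spleen (218 of 6144). It was 3 of 31 without female thymus (483 of 7986), 4 of 32 without male bone marrow (384 of 8093) and 4 of 30 without male thymus (482 of 7984). With the top cell of each library and class left out, an alternative added after seeing the data, 0 of 24 tested members were called, against 5.78% of 7442 genes called higher, and with the leading heavy gene at 80% or more of heavy constant UMIs 0 of 20 were, against 9.98% of 5470 genes. In these fits Gmnn missed the threshold at a log2 fold change of 0.42 (adjusted p = 0.0631) and 0.53 (adjusted p = 0.156), and Rrm2 at 0.33 (adjusted p = 0.256) and 0.80 (adjusted p = 0.268).

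Marker lists of other cell types also differed between the classes. Of 5 tested B cell markers, 1 (H2-Ab1) was called higher in IgG than in IgM cells. The 11 genes of the list summed to 12839 to 15683 CPM in IgM, 8513 to 13402 in IgA and 16204 to 20142 in IgG cells. The 6 germinal centre genes summed to 16.8 to 77.1, 30.9 to 79.6 and 78.3 to 108 CPM, and the 1 tested, Mef2b, was called higher in IgG cells (log2 fold change 0.51). Of 7 neutrophil genes 3 were tested and all 3 were called lower in IgG than in IgM cells, with a median of -3.29; the list summed to 0 to 1449.99 CPM in IgM, 0 to 114 in IgA and 0 to 111 in IgG cells. Of 8 macrophage genes 2 were tested and 1 was called lower, and sums were 16.8 to 89, 24.2 to 37.9 and 39.6 to 49.2 CPM. Of 5 markers of plasmacytoid dendritic cells 4 were tested, with 1 called higher and 1 lower, and sums were 632 to 1033, 894 to 1169.9 and 688 to 1192 CPM. Of the 8 ASC markers 2 were called higher and 2 lower, and sums were 50544 to 111013, 91523 to 144610 and 50461 to 78803 CPM. Without cells holding markers of other types, Gmnn and Rrm2 were both called higher in IgG than in IgM cells, 2 of 24 tested members, which is near the 5.75% of 7170 genes called higher there. The part of the B cell, germinal centre, ASC and other markers in the result was not tested.

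For IgG against IgA, 1 of 30 members was called (11.3% of all genes, 6.27% higher), Gmnn, which was higher in IgG cells of 4 of 5 libraries (log2 fold change 0.78, SE 0.23, adjusted p = 0.0227, edgeR). The IgA cells held few Gmnn UMIs: 4 and 9 in bone marrow of females and males, 47 and 3 in spleen, and 8 in male thymus. Single cells gave 88.9% of them in male bone marrow and 75% in male thymus. Beside Gmnn, 4 of 5 tested B cell markers (H2-Ab1, H2-Aa, Cd74 and Ms4a1, with a median of the 5 of 0.79) and Mef2b (1.49) were called higher in IgG cells, and their part in the result was not tested. Rrm2 at 1.05 (SE 0.42, adjusted p = 0.105), Tyms at 0.95 (SE 0.33, adjusted p = 0.0602) and Rpa2 at 0.51 (SE 0.21, adjusted p = 0.115) followed. The count was 0 without female bone marrow, female spleen or male spleen, and 2 of 32 tested without male bone marrow (370 of 8093 genes were called higher). It was 6 of 30 without male thymus (Gmnn, Rrm2, Tyms, Cdc6, Rfc2 and Rpa2), beside 500 of 7984 genes called higher. Without the top cell of each library and class it was 3 of 24 (Gmnn, Rrm2 and Tyms), beside 529 of 7442 genes called higher. Over 19 alternatives that tested it, Gmnn kept its call in 12 and lost it in 7. Rrm2 was the 1 member called without cells holding markers of other types, at 1.28 (1 of 24, 272 of 7170 genes called higher). The same held with the leading light-chain V gene at 80% or more, at 1.62 (1 of 21, 178 of 6384). For IgA against IgM, 0 of 30 members were called, against 8.84% of all genes, and DESeq2 called 0. At an unadjusted p under 0.05 there were 2 (Prim1 and Cdc6), as for 22% of all genes. Without the top cell of each library and class Rrm2 was called lower in IgA cells, at -1.43 (1 of 24 tested, 498 of 7442 genes called lower). It was also called lower without the 6% of cells with most UMIs, at -0.72 (1 of 18, 394 of 6839). With free RNA subtracted Prim1 was called higher, at 1.59 (1 of 22, 308 of 7332 genes called higher). Of the 5 B cell markers 4 were called lower in IgA than in IgM cells (median of the 5 -0.73), as was Mef2b (-0.98). The largest differences among members of at least 20 CPM were Tyms at -0.43 (SE 0.31, adjusted p = 0.461), Mcm6 at -0.26 (SE 0.17, adjusted p = 0.405), Rpa2 at -0.24 (SE 0.19, adjusted p = 0.516) and Mcm2 at 0.23 (SE 0.26, adjusted p = 0.674). The medians of the 30 members were 0.22 for IgG against IgM, 0.23 for IgG against IgA and -0.058 for IgA against IgM, with 0.011, 0.0075 and -0.0058 over all genes.

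More genes of G2 and mitosis passed the test between the classes. Of 40 tested, 22 were called higher in IgG than in IgM cells, with a median of 0.55, and 17 higher than in IgA cells, with a median of 0.82; none was called lower. Over all genes 6.2% and 6.27% were called higher in these contrasts. Cenpf, a kinetochore protein, and Cdc20, the activator of the anaphase-promoting complex, led the first by p-value, and Cdc20 and Mki67 the second. Of 26 further replication genes tested, E2f2 and Ccna2 were called higher in IgG than in IgM cells and Pold2 higher than in IgA cells. Mki67-positive cells were 40.7% and 41.2% of IgG cells for bone marrow of females and males, 41.7% and 41.3% in spleen and 11.4% in male thymus, against 24.5%, 28.2%, 34.6%, 33.8% and 23.3% of IgM cells. These shares rest on single Mki67 UMIs, which free RNA also gives. The difference between the lists was not tested.

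The difference between classes varied with tissue for 1 of 30 members, Rrm2 (adjusted p = 0.0154, edgeR, joint test of 4 coefficients), where 0.251% of all genes were called. Rrm2 was at 445 CPM in IgG cells of female bone marrow and 549 in IgA cells of male thymus, and at 26.2 to 162 CPM in the other 14 sums of at least 20 cells. One cell gave 64 of the 68 Rrm2 UMIs of those IgA cells, whose level without it was 41.5 CPM. Without the top cell of each library and class the adjusted p was 0.596, and without male thymus, female spleen or male spleen it was 0.454, 0.079 and 0.0578. Without male bone marrow 2 members, Rrm2 and Tyms, were called. DESeq2 gave an adjusted p of 1.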

How the data were processed

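Gene expression libraries of 6 sorted pools were used; the 6 immune receptor libraries were not used here. The deposited values are UMI counts per gene and barcode, not normalized. Per the submitters' processing notes, the authors used Cell Ranger 6.0.2 with GRCm38 (mm10), and per the file headers the unfiltered matrices came from Cell Ranger 4. UMIs of the chosen cells were summed per library, and by antibody class (sums of at least 20 cells) or Mki67 status within a library. Sums were tested with edgeR 4.0.16 in R 4.3.3: filterByExpr, TMM scaling, quasi-likelihood F-test, Benjamini-Hochberg adjustment over all genes tested, threshold 0.05. The tissue fit had tissue and sex as terms and 2 residual degrees of freedom; the class and Mki67 fits had library as a term. DESeq2 1.42.0 was an alternative. The steps were tested on simulated data.

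Chosen cells held 264621 to 21287170 UMIs outside immunoglobulin genes per library, and intervals on counts cover counting error only, since cells of 1 library share a pool. For shares of cells, each cell was thinned to 1000 UMIs. Free RNA was read from barcodes of at most 100 UMIs. Doublets were not called; the condition on the leading light-chain V gene, at least 50% of light-chain V UMIs, leaves barcodes with mixed light chains in (30.8% to 74.1% of the chosen cells of a library had it under 80%), and requiring 80% or leaving out the 6% of cells with most UMIs were alternatives. Genes are named if called (at most 12 by smallest p), or if among the 4 largest differences at a mean of at least 20 CPM, and of other lists if called (at most 5 by smallest p); the genes at an unadjusted p under 0.05, the members called only under an alternative, and the other values of single members were named after they were seen. The 40 genes and the other lists were chosen with earlier results of these data known. Alternatives changed the scaling, tool, filters, cell choice and depth, or left out each library in turn.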

Additional observations from a re-analysis of the deposited data

Results flagged for a closer look

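Over 29 groups of 6 libraries, made of members' levels by Mki67 status and the like, a single library stood apart from the other 5 in 4, where chance flags about 1 in 20 if all 6 are equally precise, which these libraries of unequal depth are not. Clspn in Mki67-positive cells was at 112 CPM in female thymus (8 UMIs), with the next library at 48.5 CPM. Mcm5 in Mki67-positive cells was at 97.0 CPM in male thymus (36 UMIs), with the next at 50.5 CPM. Rrm1 in Mki67-positive cells was at 97.0 CPM in male thymus (36 UMIs), with the next at 61.1 CPM, and in Mki67-negative cells it was at 31.0 CPM in female thymus (6 UMIs), with the next at 19.6 CPM. All 4 values come from the thymus libraries, which have 107 and 288 cells.

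The difference between antibody classes varied with tissue for Rrm2 (adjusted p = 0.0154, edgeR's joint test of 4 coefficients). Single cells held 57.9% of the Rrm2 UMIs of IgG cells in female bone marrow and 94.1% of those of IgA cells in male thymus. Without the cell with most S-phase UMIs of each library and class the adjusted p was 0.596.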

How the results depend on the processing

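The design has 1 pool per sex and tissue, and thymus has the fewest UMIs, so differences between tissues were poorly resolved. The labels carry no replicate numbers to use as a further block; the tissue fit holds sex, and the class and Mki67 fits hold library, as a term. Over all alternatives, counts stayed within 1.5 times the value reported, or levels and shares within 1 SD of the libraries, 155 times and moved further 76 times. That SD is small for bone marrow, where close values count as moved, and large for IgA cells, whose mean level ranged from 723 to 1202 CPM (reported 1173) within it. Single genes kept their direction and side of the threshold 657 times, lost a call 29 times, gained one 27 times and changed sign 15 times. The cause of the changes below was not tested.

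For thymus against bone marrow, 0 members were called. Among cells with at least 10% ribosomal and under 10% mitochondrial UMIs the count was 1 of 38 tested (0.843% of 9723 genes were called higher). For thymus against spleen, 0 members were called, and 1 of 38 among those cells (1.12% higher). For spleen against bone marrow, 0 members were called, and 0 of 38 among those cells. For male against female, 0 members were called, and 3 of 38 among those cells (2.46% lower). Counts with a library left out are not given for these contrasts, since 1 tissue then has 1 library. For IgA against IgM, 0 members were called, and 0 with each library left out in turn. The count was 1 of 18 tested without the 6% of cells with most UMIs and 1 of 24 without the top cell of each library and class. Both calls were Rrm2, lower in IgA cells. With free RNA subtracted it was 1 of 22, Prim1, which was higher in IgA cells. For IgG against IgM, 2 members were called, and 0 to 4 with each library left out in turn. The count was 1 of 30 tested with DESeq2 (376 of 7564 genes were called higher) and 4 of 40 with no low-count filter (463 of 17178). It was 1 of 26 at 2000 UMIs or more per cell (426 of 7230). Among cells with at least 10% ribosomal and under 10% mitochondrial UMIs it was 4 of 36 (248 of 9067). It was 1 of 6 in thinned cells (194 of 2963) and 1 of 22 with free RNA subtracted (398 of 7332). Without the top cell of each library and class it was 0 of 24, and with the top heavy gene at 80% or more 0 of 20. At 50 cells or more per class it was 4 of 32 (510 of 8266). For IgG against IgA, 1 member was called, and 0 to 6 with each library left out in turn. The count was 3 of 40 tested with no low-count filter (687 of 17178 genes were called higher). Among cells with at least 10% ribosomal and under 10% mitochondrial UMIs it was 2 of 36 (139 of 9067). It was 2 of 18 without the 6% of cells with most UMIs (384 of 6839). Without the top cell of each library and class it was 3 of 24 (529 of 7442). It was 0 of 20 with the top heavy gene at 80% or more and 4 of 32 at 50 cells or more per class (441 of 8266). For class by tissue, 1 member was called. The count was 0 of 30 tested with DESeq2 (16 of 7564 genes were called) and 0 of 21 with the leading light V gene at 80% or more (11 of 6384). It was 0 of 24 without cells with markers of other types (30 of 7170) and 0 of 18 without the 6% of cells with most UMIs (34 of 6839). It was 0 of 6 in thinned cells (8 of 2963) and 0 of 22 with free RNA subtracted (5 of 7332). Without the top cell of each library and class it was 0 of 24 (20 of 7442), and at 50 cells or more per class 0 of 32 (9 of 8266). For Mki67 status, 32 members were called, and 32 to 36 with each library left out in turn; the count was 20 of 22 tested with at least 10% ribosomal and under 10% mitochondrial UMIs and 8 of 11 tested in thinned cells.

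Among differences that did not pass the test, the log2 value changed sign as follows. Mcm5, thymus minus bone marrow was -0.72 without male thymus, over a range of -0.72 to 0.86 with each library left out. Mcm4, thymus minus spleen was -0.032 in thinned cells and -0.089 without male thymus, over a range of -0.089 to 0.76 with each library left out. Gmnn, thymus minus spleen was 0.28 with at least 10% ribosomal and under 10% mitochondrial UMIs and 0.22 without female spleen and 0.12 without female thymus, over a range of -1.64 to 0.22 with each library left out. Gmnn, spleen minus bone marrow was -0.24 without female spleen, over a range of -0.24 to 0.97 with each library left out. Tyms, spleen minus bone marrow was -0.27 without female spleen, over a range of -0.27 to 0.97 with each library left out. Rrm2, spleen minus bone marrow was -0.47 without female spleen, over a range of -0.47 to 0.92 with each library left out. Gmnn, male minus female was 0.075 without female spleen and 0.087 without male spleen, over a range of -0.64 to 0.087 with each library left out. Tyms, IgA minus IgM was 0.13 without female spleen, over a range of -0.60 to 0.13 with each library left out. Rpa2, IgA minus IgM was 0.060 with the top heavy gene at 80% or more and 0.013 without female spleen, over a range of -0.33 to 0.013 with each library left out. Mcm2, IgA minus IgM was -0.15 without the 6% of cells with most UMIs.

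For the summed S-phase level, bone marrow had 1000.1 CPM as reported, and 998 at 500 UMIs or more per cell, 1014 at 2000 UMIs or more per cell, 937 with the leading light V gene at 80% or more, 927 with at least 10% ribosomal and under 10% mitochondrial UMIs, 929.7 without cells with markers of other types, 818 without the 6% of cells with most UMIs, 869.8 in thinned cells, 969 with the top heavy gene at 80% or more and 933 without the top cell of each library and class. For the summed S-phase level, spleen had 1130.4 CPM as reported, and 956 with the leading light V gene at 80% or more, 909 without the 6% of cells with most UMIs and 934 in thinned cells. For the summed S-phase level, thymus had 1246 CPM as reported, and 1000.1 in thinned cells and 1017 without the top cell of each library and class. The share of cells with at least 3 S-phase UMIs in bone marrow, on average 6.45%, was 49.3% at 1 S-phase UMI or more, 2.26% at 5 or more, 49.6% without thinning and 5.58% with the leading light V gene at 80% or more. The share of cells with at least 3 S-phase UMIs in spleen, on average 7.53%, was 53.5% at 1 S-phase UMI or more, 2.5% at 5 or more, 53.9% without thinning and 4.98% with the leading light V gene at 80% or more. The share of cells with at least 3 S-phase UMIs in thymus, on average 9.48%, was 52.5% at 1 S-phase UMI or more, 2.96% at 5 or more and 35.2% without thinning.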

Other observations

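The chosen cells split by their ribosomal protein share, and the S-phase genes were measured on both sides of 10%. In cells at or above 10%, the summed S-phase level was 947 CPM in bone marrow of females against 906 of males, 1197 against 918 in spleen, and 799.98 against 1501 in thymus. In cells under 10% it was 1094 CPM in bone marrow of females against 1151 of males, 1249.9 against 1133 in spleen, and 1217 against 1258 in thymus. Cells under 10% had the higher level in both bone marrow, both spleen and the female thymus libraries, and the lower level in male thymus. They were shallower, with median UMIs of 1959.5 to 3125 against 4185 to 9964, and had median mitochondrial shares of 4.5% to 7.12% against 1.75% to 2.09%. The leading light-chain V gene held a median of 62.3% to 89% of light-chain V UMIs in cells under 10%, against 86.3% to 98.1% in the others. The difference between the sides, and the part of free or mixed RNA in it, was not tested.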
